A study of Mus musculus with 8 samples.

Results

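The loci described here are 1355 annotated, spliced, non-coding loci that lie apart from protein-coding genes, out of 31020 loci in the authors' merged annotation of the mouse macrophage transcriptome. A locus is a cluster of overlapping transcripts on 1 strand, assembled and reference ones together. A locus was taken when it held a transcript matching the reference and no coding-sequence identifier. It also had to cover at least 200 exonic nucleotides (nt), to hold a transcript of at least 2 exons, and to lie more than 5000 nt from every locus with such an identifier on either strand. No expression value entered the rule, but it reads transcript models that were in part assembled from these libraries, on which the membership of 14 loci described below rests. Of 7308 loci with a reference transcript and no coding-sequence identifier, 3344 reached 200 exonic nt and 2904 of these held a multi-exon transcript. Of the 2904, 1120 overlapped the span of a coding locus and 429 lay within 5000 nt of one, which left the 1355.

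RNA came from bone marrow-derived macrophages of C57BL/6 mice, which are phagocytes grown in culture from marrow. The cells of 4 libraries had received IL-4 (interleukin-4), the cytokine that drives macrophages towards alternative activation, and those of the other 4, of the same strain, were untreated. Total RNA was depleted of ribosomal RNA before library preparation, so transcripts without a poly(A) tail could also be read. The series counts the libraries of each group as biological replicates. The labels used here give no dose or duration of IL-4 and do not say whether the libraries came from different animals, so the p-values below rest on the variation among these 8 libraries alone.

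Long non-coding RNAs are transcribed by RNA polymerase II and, like messenger RNAs, are mostly capped and spliced. Many stay in the nucleus near the place of their synthesis, where some act on neighbouring genes, and others serve as hosts from whose introns or exons small RNAs are cut. They are as a rule less abundant and more cell-type specific than messenger RNAs, and in macrophages several are known to change with activation. The files do not pair locus or transcript identifiers with gene names, and the identifiers did not occur in the reference tables at hand. Loci are therefore given by identifier and mm9 position, no function is assigned to any of them, and macrophage markers could not be looked up. In bulk RNA, a change in the number of cells that carry a transcript and a change in its amount per cell cannot be told apart.

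The total count per library was 23969227 to 27783417 in IL-4 libraries and 23071022 to 26682884 in untreated ones. Both replicate 4 libraries stood apart by their reads from chromosome Y, with 5525 counts in IL-4 replicate 4 and 5808 in untreated replicate 4, against 0 to 7 in the other 6 libraries. Untreated replicate 1 had the lowest share of counts on the non-coding loci, 0.342%, against 0.398% to 0.427% in the other untreated libraries. Leaving it out raised the number of changed loci given below the most. Values without it stand beside each locus whose call it decided among those named by the rules listed with the processing. For other loci named below no such values are given. Values of single libraries are given in the order of replicates 1 to 4.

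Most of the loci had few reads or none at this depth. No read was counted at 856 of the 1355, among them all 157 that lie on sequences not placed in a chromosome; all 234 loci of any kind on such sequences had 0 counts, and no distance to a coding locus could be measured there. A further 374 had counts but too few to be tested, with a median of 3 and a maximum of 90 counts over the 8 libraries together. The filter, edgeR's default at a minimum count of 10, left 125 loci, or 9.22%, against 54.0% of the 19989 protein-coding loci. Among the 1549 non-coding candidates that overlap or lie near a coding locus, 415, or 26.8%, passed. A locus could pass through the group in which it is higher, so the tested loci are not a sample of all 1355.

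A smaller share of loci had reads farther from coding genes. Up to 20000 nt from the nearest coding locus, 175 of 313 loci had counts and 44 were tested. Between 20000 and 50000 nt the numbers were 143 of 290 with 43 tested, and between 50000 and 200000 nt 135 of 386 with 31 tested. Beyond 200000 nt, 46 of 209 had counts and 7 were tested. By exon number the tested shares were closer together, with 33 of 372 loci with 2 exons and 26 of 252 loci with 6 or more exons tested, 8.87% and 10.3%.

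The label was checked against the transcript models. The median locus had 3 exons in its longest transcript and 1225 exonic nt, with a range of 204 to 57668 nt. For 1341 loci a reference transcript itself has at least 2 exons. At the other 14, all tested, the reference transcripts have a single exon and the splicing comes only from transcripts assembled in these libraries. Of these 14, 8 hold references of 27 to 155 nt beside longer assembled transcripts, so short RNAs are what is annotated there, in full or in part. The loci with the largest fall and with the most counts, XLOC_004286 and XLOC_000179, are both of that kind. Assembled transcripts other than the reference ones were present at 103 loci, 95 of them tested. Not all are variants of a reference transcript, as some only overlap one or have no reference. At 7 tested loci, XLOC_028634, XLOC_009206 and XLOC_007024 among them, separate groups of reference transcripts were joined, so a value may stand for several genes. At 16 tested loci some exonic nt are shared with another locus, over 0.5 of them at 6, and reads there are of uncertain origin. Exons covered 13.1% of the genomic span at the median locus and 32.1% at the median tested locus.

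Treatment with IL-4 changed 60 of the 125 tested loci (48%), with 22 higher and 38 lower in IL-4 libraries (edgeR's quasi-likelihood test over all 13761 tested loci, Benjamini-Hochberg adjusted p under 0.05). Over all tested loci 51.8% changed, 25.6% up and 26.2% down, and among tested protein-coding loci 54.3% changed, so the share of changed non-coding loci was near the background. By direction, 17.6% of the tested non-coding loci rose and 30.4% fell. Their median log2 fold change, IL-4 over untreated, was -0.20, against -0.02 over all tested loci. Changes of at least 2-fold were found at 16 loci that rose (12.8%, background 8.03%) and 17 that fell (13.6%, background 8.04%). Of these, 5 rose and 2 fell by at least 10-fold, a limit for which no share over all loci is given. All IL-4 libraries lay on the same side of all untreated ones at 60 of the 125 (48%, background 50.2%), which were 18 of the 22 rises, 35 of the 38 falls and 7 loci that did not pass the test. Under glmTreat, a test that asks for more than 1.5-fold, there were 14 rises and 18 falls (32 in all, background 17.9%). With the replicate number as a block 68 changed (background 57.9%), and with no filter on counts 91 of 499 (background 36.9%). Without untreated replicate 1, 25 rose and 52 fell, and without both replicate 4 libraries 22 rose and 31 fell. No share over all tested loci is given for these fits, so their counts are not read as a trait of the non-coding loci.

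By distance from coding loci, 8 of 44 tested loci rose and 13 fell in the nearest class, 10 and 11 of 43 in the second, 4 and 11 of 31 in the third and 0 and 3 of 7 in the farthest. Of the 14 loci spliced only in assembled transcripts, 2 rose and 2 fell. Over all tested loci 25.6% rose and 26.2% fell, and these small counts are not read as a trend with distance.

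**Figure D1:**
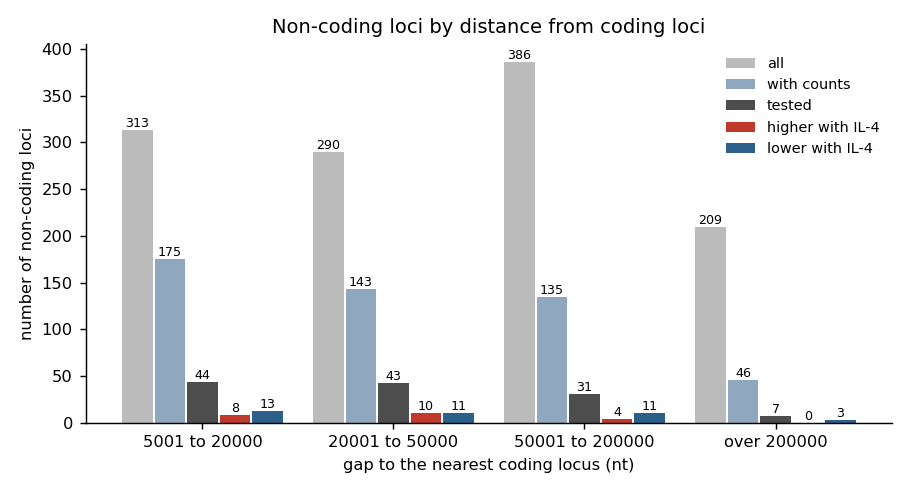
Number of non-coding loci by distance from the nearest coding locus in nt, leaving out the 157 on unplaced sequences. Bars give all loci, loci with counts, tested loci, and loci higher or lower with IL-4 (edgeR, adjusted p under 0.05); of 209 loci beyond 200000 nt, 46 had counts.

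**Figure D2:**
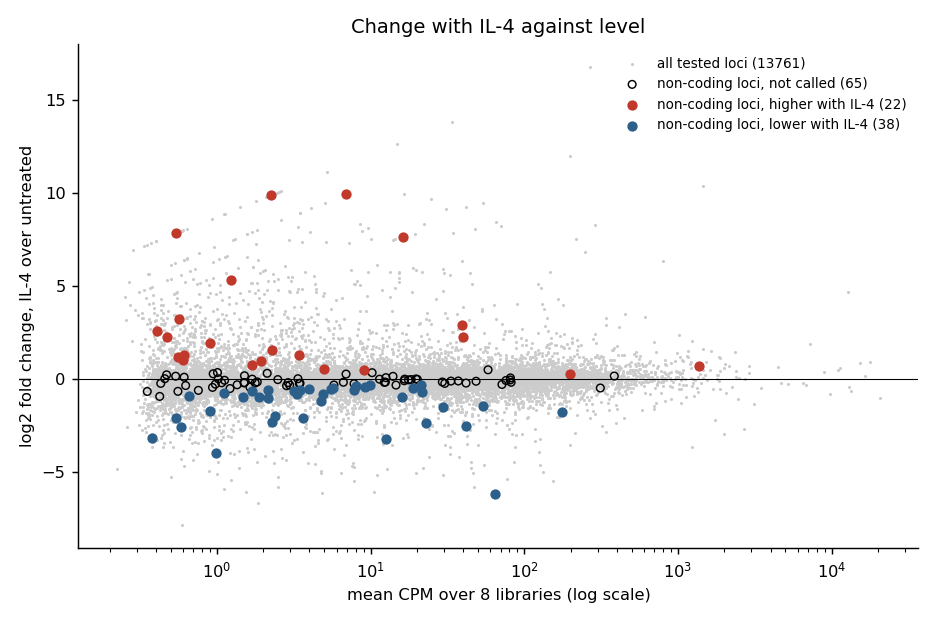
Log2 fold change of IL-4 over untreated (vertical) against the mean CPM over 8 libraries (horizontal, log scale; CPM is the count scaled to the total of the library) for all 13761 tested loci in grey. Non-coding loci are the 22 higher with IL-4 in red, the 38 lower in blue and the 65 not called as open circles; the highest red points are XLOC_028634 and XLOC_002793, with 1 and 0 untreated counts, and their height depends on the prior count of the fit and is not a measured size.

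Levels are given as CPM, a locus's count scaled to the total of its library, or as FPKM, which also divides by the length of the transcript and counts fragments. Per length, the median summed FPKM was 1.53 for tested non-coding loci and 6.97 for tested coding loci. By CPM, 43 of the 125 averaged at least 10 over the 8 libraries and 27 under 1. Together the 1355 loci held 0.389% ± 0.00911 of the counts in IL-4 libraries and 0.396% ± 0.0379 in untreated ones (SD, n = 4 each). A single locus, XLOC_000179, made up 42.4% ± 2.06 of these counts in IL-4 libraries and 27.5% ± 3.88 in untreated ones. Without it the share was 0.224% ± 0.0130 in IL-4 and 0.288% ± 0.0406 in untreated libraries. The 10 most abundant loci held 72.1% of all counts on the 1355. Among them XLOC_000179, XLOC_016606, XLOC_007024, XLOC_025755 and XLOC_009560 have only single-exon reference transcripts, so these shares are not those of annotated spliced RNAs alone.

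The largest rises included 3 loci with next to no reads in untreated cells. XLOC_028634, a locus of 7 exons on the plus strand of chromosome 9 (122481419 to 122592880), had 11.8, 17.0, 18.5 and 7.65 CPM in IL-4 libraries. In the untreated libraries it had 0 CPM in 3 and 0.0433 CPM in replicate 3. All 4 IL-4 libraries thus lay far above every untreated one, with 1428 counts against 1. The ratio was 1344 with an exact binomial 95% interval of 240.9 to 53135 (edgeR, adjusted p = 1.543e-07), and without untreated replicate 3 the locus was at least 343.2-fold higher. The strongest assembled isoform, with 7 exons and 1666 nt, had 1.09, 1.19, 2.04 and 0.647 FPKM in IL-4 libraries and 0 in each untreated one. Floors of 3 counts per group and such intervals cover counting error only.

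XLOC_002793, with 3 exons on chromosome 10 (84683687 to 84729137), had 4.18, 4.46, 5.51 and 3.92 CPM in IL-4 libraries and 0 in each untreated library. With 470 counts against 0 it was at least 147.5-fold higher (edgeR, adjusted p = 5.809e-07). XLOC_008030, with 2 exons on chromosome 14 (63183324 to 63227199), had 1.16, 0.972, 1.25 and 0.924 CPM in IL-4 libraries and 0 in each untreated library. Its 112 counts against 0 made it at least 35.15-fold higher (edgeR, adjusted p = 8.577e-06). At both loci the IL-4 libraries varied little among themselves. Bounds are set by depth, so the order of these loci by size of change was not measured.

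XLOC_010104, with 3 exons on chromosome 16 (11778475 to 11781593), was nearly off in untreated cells and among the more abundant of the loci after IL-4. It had 32.4, 39.9, 33.8 and 23.1 CPM in IL-4 libraries, against 0.0807, 0.112, 0.390 and 0.125 CPM in untreated libraries. Untreated replicate 3 was the highest of the untreated libraries and still far below the IL-4 range. The rise was 195.4-fold (log2 fold change 7.61, SE 0.29, edgeR, adjusted p = 9.071e-09) and 309.6-fold without untreated replicate 3. Its FPKM came almost wholly from assembled isoforms in IL-4 libraries, with 13.2, 17.1, 13.4 and 8.62 FPKM for an isoform of 2 exons and 8.77, 10.3, 9.85 and 7.67 FPKM for an isoform of 3 exons. The reference transcript of the locus was at most 7.36e-05 FPKM in IL-4 libraries and 0.0306 to 0.109 FPKM in untreated ones. The annotated start of that transcript, at 11779823, lies within the span of the assembled ones, which begin at 11778475 and 11778505.

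XLOC_010667, with 5 exons on the same chromosome (51979649 to 51987413), had 2.55, 2.45, 2.84 and 1.81 CPM in IL-4 libraries. Untreated libraries had 0.0807, 0.0750, 0.0433 and 0.0417 CPM, and the groups were well apart. It rose 39.3-fold (edgeR, adjusted p = 1.258e-07). XLOC_009117 on chromosome 15 (77449398 to 77458005) rose 9.45-fold but varied most within a group among tested loci with a mean of at least 1 CPM there. It had 1.08, 0.540, 0.542 and 1.89 CPM in IL-4 libraries against 0, 0.112, 0.173 and 0.167 CPM in untreated ones (edgeR, adjusted p = 0.001221). Its coefficient of variation within the IL-4 group was 0.627. The only reference transcript of XLOC_009117 is a single exon of 8431 nt, with 0.00333 to 0.0101 FPKM in IL-4 libraries. The splicing there comes from an assembled transcript of 5 exons, with 0.180 to 0.656 FPKM in IL-4 libraries.

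Larger in level were the rises of XLOC_023256 and XLOC_007077. XLOC_023256 on chromosome 6 (89193050 to 89236896) has up to 7 exons and had 61.8, 79.1, 79.8 and 56.0 CPM in IL-4 libraries against 11.1, 9.18, 10.97 and 8.76 CPM in untreated ones. It rose 7.45-fold (log2 fold change 2.90, SE 0.13, edgeR, adjusted p = 3.512e-08), with no overlap. XLOC_007077 on chromosome 13 (52649727 to 52668666) had 69.1, 69.2, 63.6 and 58.0 CPM in IL-4 libraries against 15.2, 14.1, 14.2 and 14.7 CPM in untreated ones. Its untreated libraries were nearly equal, and the rise of 4.804-fold had the smallest adjusted p among the tested non-coding loci (log2 fold change 2.26, SE 0.08, edgeR, adjusted p = 3.939e-09). An assembled isoform of 6 exons carried it, with 15.0, 13.2, 12.5 and 12.3 FPKM in IL-4 libraries against 2.15, 1.47, 1.46 and 1.53 FPKM in untreated ones, while the reference transcript of 4 exons was at 0 or next to it in all 8.

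The other 4 of the 12 largest rises averaged 0.688 to 3.36 CPM with IL-4 and 0.123 to 1.20 CPM without. XLOC_014668 on chromosome 2 (77889280 to 78034587), XLOC_018693 on chromosome 4 (94742360 to 94834554), XLOC_010099 on chromosome 16 (11008991 to 11015277) and XLOC_015076 on chromosome 2 (116725878 to 116741020) rose 5.88-fold, 4.78-fold, 3.88-fold and 3.002-fold (edgeR, adjusted p = 0.0003825, 0.0009606, 0.0005739 and 0.0003424). XLOC_015076 shares 30% of its exonic nt with another locus. The groups overlapped at none of the 12. As these are the changed loci with the largest fold changes, the choice itself favours groups that lie apart. The 10 smaller rises had log2 fold changes of 0.27 to 1.31.

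**Figure D3:**
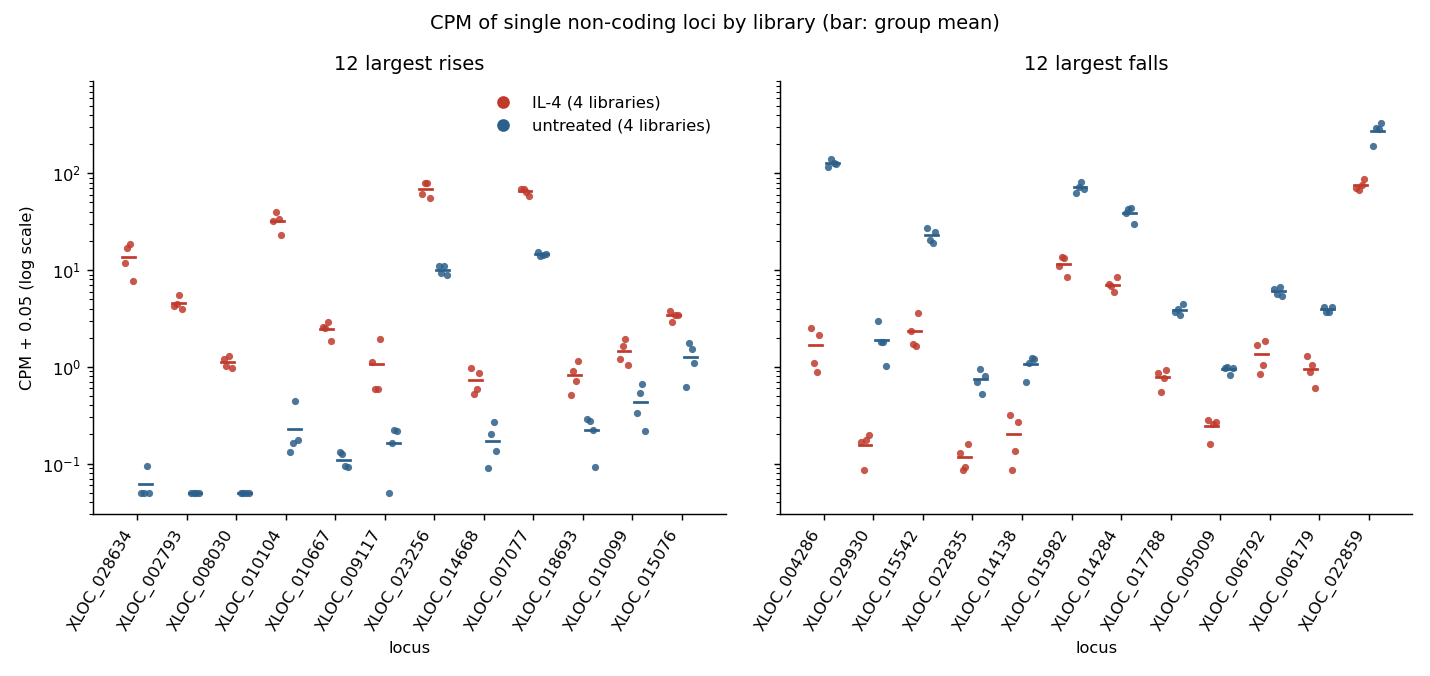
CPM plus 0.05 (log scale) of the 12 largest rises and the 12 largest falls in each library, with IL-4 in red and untreated in blue and a bar at each group mean. At all 24 loci the groups are apart, which the choice of loci by the size of their change favours. The offset of 0.05 places libraries with 0 counts at the bottom of the axis.

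The deepest fall was at XLOC_004286 on the minus strand of chromosome 11 (43182032 to 43199202). It had 2.48, 1.04, 0.834 and 2.11 CPM in IL-4 libraries against 117, 139.8, 128 and 126 CPM in untreated ones. The untreated libraries were tightly grouped, and those with IL-4 varied by more relative to their mean, with a coefficient of variation of 0.495. It fell 72.9-fold (log2 fold change -6.19, SE 0.23, edgeR, adjusted p = 7.156e-09). The annotated transcript is a single exon of 65 nt (43187899 to 43187963) and was listed at 0 FPKM in all 8 libraries. FPKM were instead listed for assembled transcripts that enclose it. The strongest has 2 exons and had 0.112, 0.0624, 0.0524 and 0.122 FPKM in IL-4 libraries against 6.15, 7.66, 6.39 and 7.35 FPKM in untreated ones.

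XLOC_015542, with 4 exons on chromosome 2 (166272707 to 166285934), had 2.32, 1.69, 1.59 and 3.59 CPM in IL-4 libraries against 27.1, 20.2, 19.1 and 25.0 CPM in untreated ones. XLOC_015982, on the same chromosome (84328645 to 84408703) with 43116 exonic nt, had 10.9, 13.8, 13.1 and 8.50 CPM in IL-4 libraries against 62.8, 72.4, 81.7 and 68.8 CPM in untreated ones. XLOC_014284, also there (6393040 to 6403004), had 7.198, 6.73, 5.84 and 8.39 CPM in IL-4 libraries against 39.2, 43.3, 44.0 and 29.6 CPM in untreated ones. All 3 loci were lower in every IL-4 library than in any untreated one. They fell 9.20-fold, 5.73-fold and 5.13-fold (edgeR, adjusted p = 9.076e-07, 8.261e-08 and 2.008e-07). At XLOC_015982 the fall was smaller in FPKM, with summed means of 0.746 FPKM in IL-4 and 2.43 FPKM in untreated libraries. Its assembled isoform of 43092 nt averaged 0.745 and 1.63 FPKM. That isoform fell by 1.04 on the log2 scale of FPKM plus 0.1 (limma, adjusted p = 0.003016), against 2.52 for the locus in counts. The cause of the difference was not tested.

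XLOC_022859 on chromosome 6 (3278469 to 3296123) was the only locus among both the 12 largest falls and the 8 most abundant. It had 69.9, 66.9, 75.4 and 88.0 CPM in IL-4 libraries against 192, 291, 290.1 and 335 CPM in untreated ones. Untreated replicate 1 was the lowest of its group but above all IL-4 libraries, and the locus fell 3.42-fold (log2 fold change -1.77, SE 0.16, edgeR, adjusted p = 3.494e-06). The reference transcript of 3 exons and an assembled one of 14434 nt that runs past it fell together, by 1.71 and 1.86 on the log2 scale of FPKM plus 0.1 (limma, adjusted p = 9.501e-05 and 9.137e-05).

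XLOC_029930 on the X chromosome (53627716 to 53632690) fell 15.8-fold to 0.116, 0.0360, 0.125 and 0.148 CPM in IL-4 libraries, against 2.94, 1.76, 1.78 and 0.960 CPM in untreated ones (edgeR, adjusted p = 3.095e-05). The other 6 of the 12 largest falls averaged 0.0665 to 1.31 CPM with IL-4 and 0.693 to 5.97 CPM without. XLOC_022835 on chromosome 6, XLOC_014138 on chromosome 19, XLOC_017788 on chromosome 3, XLOC_005009 on chromosome 11, XLOC_006792 on chromosome 13 and XLOC_006179 on chromosome 12 fell 9.12-fold, 5.95-fold, 4.89-fold, 4.25-fold, 4.22-fold and 4.00-fold (edgeR, adjusted p = 5.504e-05, 0.0003496, 2.499e-06, 6.543e-05, 1.59e-05 and 1.122e-05). The most abundant of them, XLOC_006792, averaged 1.31 ± 0.488 CPM in IL-4 and 5.97 ± 0.572 CPM in untreated libraries (SD, n = 4 each). XLOC_017788 lies 743670 nt from the nearest coding locus. The 26 smaller falls had log2 fold changes of -0.32 to -1.74.

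Of the 8 loci with the highest mean CPM, XLOC_022859 and 2 others passed the test. XLOC_000179 on chromosome 1 (60760757 to 60762551) had 1681, 1609, 1608 and 1695 CPM in IL-4 libraries against 1138, 1110, 1079 and 991.7 CPM in untreated ones. The libraries within each group lay close together, and the locus rose 1.64-fold (log2 fold change 0.72, SE 0.07, edgeR, adjusted p = 6.307e-06); against a change of 1.5-fold it did not pass (edgeR's glmTreat, adjusted p = 0.05686). Its only annotated transcript has 155 nt (60761103 to 60761257) and had 896, 943.5, 907.5 and 1013 FPKM in IL-4 libraries against 603, 585, 498 and 543 FPKM in untreated ones. An assembled transcript of 2 exons around it had 613, 591, 603 and 646.5 FPKM in IL-4 libraries against 395, 388, 381 and 353 FPKM in untreated ones. The share of reads given to each of them by the authors' software cannot be checked from counts, which are per locus. The short and the long transcript rose alike, by 0.76 and 0.69 on the log2 scale of FPKM plus 0.1 (limma, adjusted p = 0.0001097 and 3.481e-05).

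XLOC_018379 on chromosome 4 (3898266 to 3901202) had 194.5, 206.5, 217 and 216 CPM in IL-4 libraries against 155, 191.5, 189.9 and 208 CPM in untreated ones. The groups overlapped, and its rise of 1.21-fold (edgeR, adjusted p = 0.02401) was lost on leaving out replicate 3 or 4 of the IL-4 group or replicate 3 of the untreated group (adjusted p = 0.05468, 0.05823 and 0.05177) and with glmTreat. XLOC_016606 on chromosome 2 (156212318 to 156218792) has a single-exon reference transcript of 4917 nt. It averaged 392.1 ± 11.5 CPM in IL-4 and 378 ± 27.7 CPM in untreated libraries (SD, n = 4 each). It did not pass the test (log2 fold change 0.16, edgeR, adjusted p = 0.06484), but passed with the replicate number as a block (0.16, adjusted p = 0.04754), without untreated replicate 1 (0.20, adjusted p = 0.01575) and without IL-4 replicate 3 (0.20, adjusted p = 0.04889). It also passed with RLE size factors (0.18, edgeR, adjusted p = 0.04238) and with DESeq2 (0.18, adjusted p = 0.02378).

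XLOC_030329 on the X chromosome (18718641 to 18745949), 680240 nt from the nearest coding locus, averaged 249 ± 45.5 CPM in IL-4 and 376 ± 138.6 CPM in untreated libraries (SD, n = 4 each). By library it had 191.3, 245.3, 302 and 255.9 CPM with IL-4 against 172.3, 413.6, 482.3 and 434.6 CPM untreated. By replicate number, IL-4 was the higher in replicate 1 and the lower in the others. It did not pass the test (log2 fold change -0.48, SE 0.26, edgeR, adjusted p = 0.1398), but passed with the replicate block (-0.41, adjusted p = 0.0114) and without untreated replicate 1 (-0.72, adjusted p = 0.0008574). XLOC_007024 on chromosome 13 (48625005 to 48648290), within which 3 short references of 89 to 103 nt lie, had 77.0, 68.9, 84.0 and 66.2 CPM in IL-4 libraries against 68.1, 99.8, 96.6 and 95.3 CPM in untreated ones. Untreated replicate 1 was alone in lying within the IL-4 range; with it the log2 fold change was -0.17 (edgeR, adjusted p = 0.224), and without it -0.28 (adjusted p = 0.009655). XLOC_019808 on chromosome 4 and XLOC_025755 on chromosome 7 averaged 79.8 ± 7.24 and 76.3 ± 16.9 CPM in IL-4 libraries against 82.6 ± 13.5 and 85.5 ± 27.3 CPM in untreated ones, with adjusted p of 0.6935 and 0.854 (edgeR). The only reference transcript of XLOC_025755 is a single exon of 27 nt.

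At the distance limit, XLOC_005426 on chromosome 12 (77545484 to 77552370), 5005 nt from a coding locus, was the nearest tested locus that was taken. It had 2.28 ± 0.412 CPM in IL-4 and 1.97 ± 0.388 CPM in untreated libraries (SD, n = 4 each). XLOC_004188 on chromosome 11 (6425622 to 6428805), 4660 nt from one, was the tested locus closest to the limit among those left out. It had 15.9, 12.7, 13.6 and 11.3 CPM in IL-4 libraries against 12.7, 13.5, 10.1 and 12.4 CPM in untreated ones.

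Each tested locus was set beside its nearest protein-coding locus, which was itself tested in 92 cases. Of 43 changed non-coding loci with such a neighbour, 29 (67.4%) had a changed neighbour. Of 49 that did not pass the test, 22 (44.9%) had a changed neighbour, against 54.3% of all tested coding loci. Among the 29 pairs, 17 moved the same way, 9 up and 8 down. In the other 12 the directions were opposite, with 3 in which the non-coding locus rose and the coding one fell and 9 in which it fell and the coding one rose. The non-coding change was the larger on the log2 scale in 24 of the 29. Both loci of each such pair had to pass the test, and tested non-coding loci had lower counts. Their median mean CPM was 3.435, against 26.7 for tested coding loci. At lower counts a change has to be larger to pass, so the 24 cannot show a larger response of non-coding loci. Pairs can also share a coding locus, as those of XLOC_018693 and XLOC_018694 share XLOC_019587. The counts of pairs are a description without a test.

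**Figure D4:**
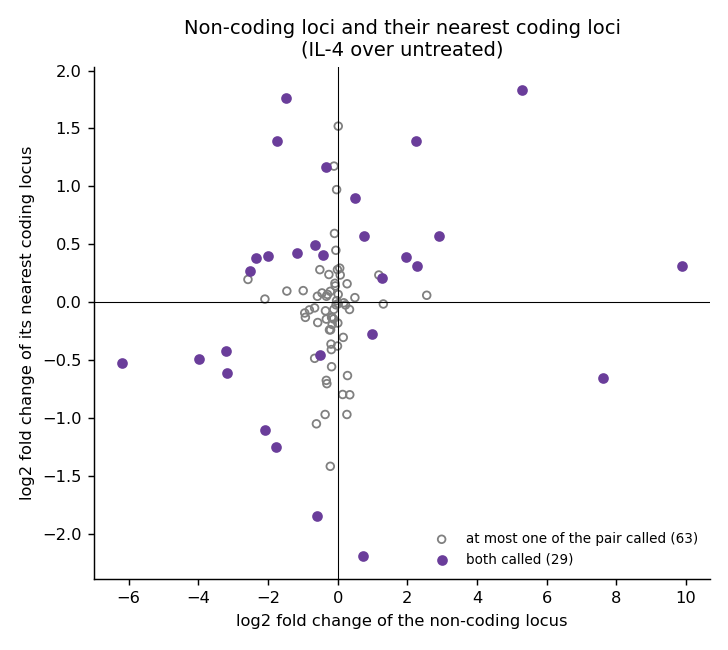
Log2 fold change of IL-4 over untreated of 92 non-coding loci (horizontal) and of the nearest coding locus of each (vertical). Filled points are the 29 pairs in which both passed the test; 17 of them lie in the quadrants of equal direction.

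Close pairs show both patterns. XLOC_010104, the locus with the 195.4-fold rise, begins 19109 nt past the end of XLOC_010103, a coding locus of 21 exons on the same strand (chromosome 16, 11322443 to 11759365). That coding locus fell by 0.65 on the log2 scale, with 66.3 ± 6.59 CPM in IL-4 and 112.5 ± 7.74 CPM in untreated libraries (SD, n = 4 each, edgeR, adjusted p = 6.786e-05). XLOC_007077 lies 9227 nt from XLOC_006564, a coding locus of 15 exons on the opposite strand, which had 230.4 ± 10.1 CPM in IL-4 and 199 ± 13.8 CPM in untreated libraries (log2 fold change 0.32, SE 0.07, edgeR, adjusted p = 0.002748). On chromosome 16, XLOC_010099 and the coding locus XLOC_010459, 15668 nt away on the other strand, both rose, and XLOC_010459 changed by 0.39 on the log2 scale (SE 0.09, edgeR, adjusted p = 0.004123). On the X chromosome, XLOC_029930 and the coding locus XLOC_029929, 8721 nt away on the same strand, both fell, and XLOC_029929 changed by -0.49 on the log2 scale (SE 0.12, edgeR, adjusted p = 0.004573). The falls of XLOC_015982 and XLOC_006179 stood beside small rises of coding neighbours on the same strand 11697 and 16893 nt away. These were XLOC_015981, which differed by 0.27 on the log2 scale (SE 0.09, edgeR, adjusted p = 0.02076), and XLOC_006180, by 0.40 (SE 0.06, edgeR, adjusted p = 0.0002426).

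Among the 12 largest rises, the tested coding neighbour with the largest change was that of XLOC_010667. XLOC_010311 on chromosome 16 (52031023 to 52216603), 43609 nt away, had 359.9 ± 49.0 CPM in IL-4 and 108.9 ± 8.85 CPM in untreated libraries (SD, n = 4 each), with a difference of 1.83 on the log2 scale (SE 0.10, edgeR, adjusted p = 1.151e-07). The locus with the most counts went against its neighbour. XLOC_000179 rose, and the coding locus XLOC_000180, 40610 nt away, fell with a log2 fold change of -2.19 (edgeR, adjusted p = 0.0001228).

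Tested non-coding loci also lay near each other, in 13 pairs within 100000 nt, of which 2 had both loci changed. On the plus strand of chromosome 4, XLOC_018693 and XLOC_018694 (94859877 to 94876476) are 25322 nt apart and moved in opposite directions. XLOC_018693 had 0.464, 0.864, 0.668 and 1.11 CPM in IL-4 libraries against 0.242, 0.225, 0.173 and 0.0417 CPM in untreated ones. XLOC_018694 had 0.271, 0.432, 0.125 and 0.702 CPM in IL-4 libraries against 1.41, 1.499, 1.39 and 1.34 CPM in untreated ones. Neither showed an overlap of groups, and the log2 fold changes were 2.26 and -1.74 (edgeR, adjusted p = 0.0009606 and 0.001448). Their nearest coding locus is the same, XLOC_019587 (94714130 to 94719124), which had 185 ± 28.6 CPM in IL-4 and 75.7 ± 10.3 CPM in untreated libraries (SD, n = 4 each, log2 fold change 1.40, edgeR, adjusted p = 3.805e-06). On chromosome 15 the overlapping loci XLOC_009205 and XLOC_009206 both fell, 1.76-fold and 1.42-fold (edgeR, adjusted p = 0.001985 and 0.006221).

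A group of 4 tested loci on both strands of the X chromosome (100626856 to 100819093) showed spread between replicates. XLOC_030618, with up to 10 exons on the minus strand, had 25.8, 46.8, 50.9 and 20.6 summed FPKM in IL-4 libraries 1 to 4, against 26.2, 47.0, 62.0 and 23.2 FPKM in untreated libraries 1 to 4. In both groups replicates 2 and 3 were high and replicates 1 and 4 low, and the groups overlapped throughout. In counts its log2 fold change was -0.01 (SE 0.39, edgeR, adjusted p = 0.9893). It averaged 10.9 ± 5.36 CPM in IL-4 and 11.9 ± 6.12 CPM in untreated libraries (SD, n = 4 each). Of its exonic nt 95.6% are shared with another locus, and how such reads were counted is not stated in the sources used. Its counts were low for its mean summed FPKM of 36.0 in IL-4 and 39.6 in untreated libraries. XLOC_030329, with no shared exonic nt, averaged 18.8 and 27.6 FPKM at 249 and 376 CPM. The CPM of XLOC_030618 is therefore not read as its level, and its test in counts may cover only part of its reads. Whether reads on shared exons were left out was not tested.

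Its neighbour on the same strand, XLOC_030619, had 1.15, 1.06, 1.16 and 1.11 summed FPKM in IL-4 libraries against 1.498, 1.91, 1.90 and 1.5 FPKM in untreated ones. The groups did not overlap, and in counts it fell 1.43-fold (log2 fold change -0.51, SE 0.15, edgeR, adjusted p = 0.01241), with 65.7% of its exonic nt shared. The plus-strand loci XLOC_030084 and XLOC_030082 were at 0.240 to 0.475 and 0.0602 to 0.153 summed FPKM in IL-4 libraries, against 0.377 to 0.611 and 0.0574 to 0.1702 FPKM in untreated ones. Neither passed the test in counts (edgeR, adjusted p = 0.153 and 0.8379). Without knowledge of strand in the counting, reads of XLOC_030618 and of XLOC_030082, which overlaps it on the other strand, cannot be told apart.

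**Figure D5:**
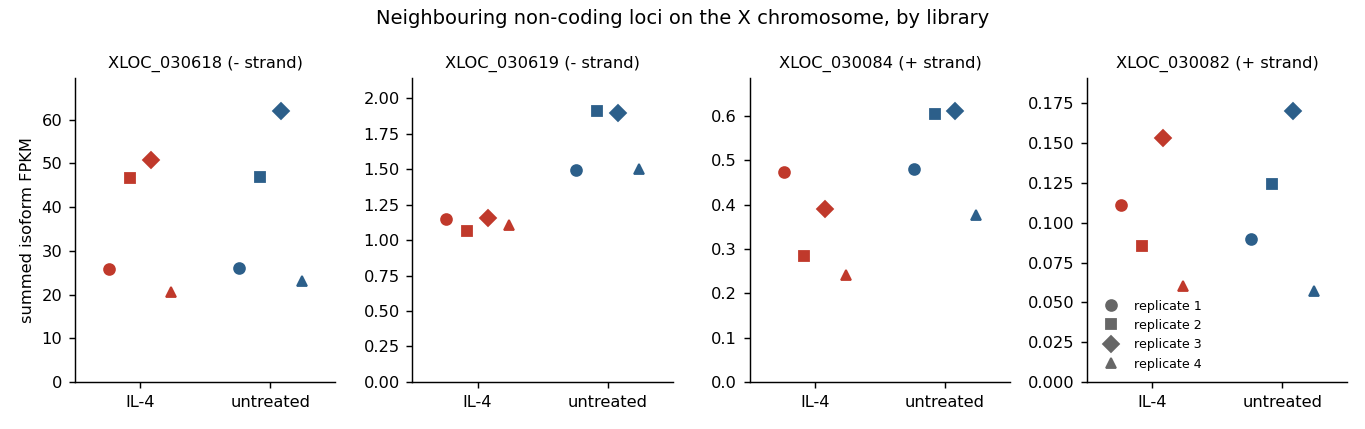
Summed isoform FPKM of 4 neighbouring non-coding loci on the X chromosome in each library, with IL-4 left and untreated right and the replicate number as the marker shape. Each panel has its own vertical axis from 0; at XLOC_030618 replicates 2 and 3 are high in both groups.

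XLOC_000468 on chromosome 1 (139795148 to 139867505), the locus with the most exonic nt, also varied among untreated libraries. It is among the 14 loci spliced only in assembled transcripts. Its only reference transcript is a single exon of 264 nt, at 0 FPKM or next to it in all 8 libraries. It had 46.0, 74.6, 77.6 and 64.3 CPM in IL-4 libraries against 18.6, 56.1, 74.5 and 52.7 CPM in untreated ones. Replicate 1 was the lowest and replicate 3 the highest in both groups, which overlapped. The log2 fold change was 0.49 (SE 0.32, edgeR, adjusted p = 0.2152) without and 0.60 (adjusted p = 0.003032) with the replicate block.

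At the level of isoforms, the 1355 loci hold 2159 transcripts, of which 958 had FPKM above 0 in a library. A filter of 1 FPKM or more in 4 or more libraries kept 99 isoforms of 66 loci. Of these 34 changed (34.3%, background 38.4%), 11 up (11.1%, background 19.8%) and 23 down (23.2%, background 18.5%), at 25 loci (limma on log2(FPKM + 0.1), adjusted p under 0.05). A fold change on that scale understates the change of low isoforms. Reference transcripts made up 55 of the 99, with 18 changed, and other assembled transcripts 44, with 16 changed. Of the 34 changed isoforms, 27 lie at loci that also changed in counts, and all 27 moved the same way as their locus. Counts and FPKM come from the same libraries and are not independent. Without both replicate 4 libraries 5 isoforms rose and 8 fell of 78 tested. Leaving out 1 IL-4 library at a time left 5 to 7 rises, and leaving out untreated replicate 2, 3 or 4 left 8, 10 or 8 falls. The filter kept asking for 4 libraries there, so fewer isoforms were tested, and no share over all isoforms is given for these fits.

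The other 7 changed isoforms belong to loci that did not change or were not tested in counts. The largest of these was an assembled isoform of 7 exons of XLOC_010196 on chromosome 16 (25058136 to 25076357), with 0.253 ± 0.0770 FPKM in IL-4 and 1.15 ± 0.121 FPKM in untreated libraries (SD, n = 4 each). It fell by 1.85 on the log2 scale (limma, adjusted p = 0.0004983), while the locus as a whole had a log2 fold change of -0.21 in counts (edgeR, adjusted p = 0.577) and shares 94.4% of its exonic nt with another locus. The 2-exon reference transcript of XLOC_008358 rose, with 3.84 ± 0.137 FPKM in IL-4 and 2.86 ± 0.157 FPKM in untreated libraries (SD, n = 4 each, limma, adjusted p = 0.00394), although the locus had 8 counts in all. It is 1 of 9 loci with FPKM of at least 1 in a library that did not pass the filter on counts. Another, XLOC_028371 on chromosome 9 (72017934 to 72022873), had 19.7 ± 0.799 FPKM in IL-4 and 20.1 ± 4.20 FPKM in untreated libraries with 12 counts.

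Of the 21 loci with at least 2 tested isoforms, 3 passed a test of the log2 ratio of an isoform to the rest of its locus (limma, pseudocount of 0.1, background 16.6%). These were XLOC_004286, XLOC_023256 and XLOC_010104. At all 3 the tested isoforms had passed the filter on FPKM only through the group in which they are high, and had at most 0.253 FPKM in any library of the other group. The ratio there depends on the pseudocount, so nothing is read from these calls about the use of isoforms. At XLOC_004286 the strongest isoform made up 68.0 ± 5.30% of the FPKM of the locus in IL-4 and 69.4 ± 2.60% in untreated libraries (SD, n = 4 each). At XLOC_023256 an assembled isoform of 6 exons had 1.37, 1.41, 2.05 and 1.26 FPKM in IL-4 libraries and next to 0 in all untreated ones. A reference transcript of 4 exons at the same locus had 1.09, 2.09, 2.06 and 1.53 FPKM in IL-4 libraries against 0.0171, 0.176, 0.142 and 0.253 FPKM in untreated ones.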

How the data were processed

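The authors deposited whole-number read counts per locus, FPKM per transcript and a merged annotation for all 8 libraries. Per the submitters' processing notes the build is mm9 and the tools are HTSeq, Cufflinks 2.1.1, TopHat2 2.0.9 and CASAVA 1.8.2; settings, strand and the handling of reads on several loci are not given in the sources used here, so genes with near copies or shared exons are uncertain. Deposited FPKM carry no depth of their own. Every value column matched a library by its label code. Counts of all loci were tested with edgeR 4.0.16 (R 4.3.3; TMM factors, default filter, quasi-likelihood, two-sided), and FPKM with limma 3.58.1 on log2(FPKM + 0.1); DESeq2 1.42.0 was an alternative. Procedures were tested on simulated data. SE came from the test's F value.

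The members and lists were chosen with earlier results of these data known. Lists of marker and long non-coding RNA symbols matched 0 identifiers. Named by rule were the 12 largest rises and falls, the 8 highest mean CPM, called loci with a group at 0, the loci beside the distance limit, those with the largest change in isoform share or largest within-group variation, and changed coding neighbours under 20000 nt from the first set; other loci were named after their values were seen.

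Libraries with the same replicate number deviated together from their group means (correlations 0.39, 0.15, 0.23 and 0.18 over loci). By the criterion of more than 0.1 in every pair the numbers were taken as pairs in alternative fits with a replicate block. The labels state no block, so the main fits and their p-values have none. Loci named by rule whose call differs are given with both. Replicates 2 and 3 were not told apart: IL-4 replicate 2 correlated more with untreated replicate 3 (0.26) than with its own number, and IL-4 replicate 3 with untreated replicate 2 (0.13) and IL-4 replicate 4 with untreated replicate 1 (0.12) were also above 0.1.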

Additional observations from a re-analysis of the deposited data

Results flagged for a closer look

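In 72 groups of 4 libraries examined at the loci named by rule, 5 had a library far from the others, with a gap to the nearest of them above Dixon's 95% critical share of the group's range. Chance gives about 1 such group in 20. All 5 were untreated groups, with replicate 1 or 3 apart.

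Untreated replicate 1 was low at 2 abundant loci. XLOC_007024 had 68.12 CPM there and 95.3 to 99.8 CPM in the other untreated libraries. XLOC_019808 had 62.43 CPM there and 88.6 to 90.5 CPM in the others. Untreated replicate 3 was apart at 3 less abundant loci. XLOC_005009 had 0.7802 CPM there and 0.918 to 0.937 CPM in the other untreated libraries. XLOC_010104 had 0.3901 CPM there and 0.0807 to 0.125 CPM in the others. XLOC_028634 had 0.04334 CPM there, which is a single count, and 0 in the others. The cause was not tested.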

How the results depend on the processing

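Of 60 changed loci, 50 were called in every fit that left out a single library or both replicate 4 libraries. Leaving out 1 library or that pair gave 53 to 77 changed loci, 21 to 25 up and 31 to 52 down. It gave 13 to 31 changed isoforms (17 to 31 with a single library left out), 5 to 13 up and 8 to 22 down, 0 to 2 loci passing the isoform ratio test, and a difference in the share of counts of -0.02519 to 0.003055 percentage points. No background share is given for the fits with libraries left out. The replicate block gave 68 changed loci (26 up, 42 down, background 57.9% in either direction), 36 isoforms and 3 loci passing the ratio test. Apart from XLOC_000468, XLOC_016606 and XLOC_030329 it changed no call of a locus named by rule.

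A filter of at least 1 CPM in 4 libraries left 14 rises. No filter on counts gave 91 changed loci (background 36.9% in either direction), 40 of them up. Against a change of 1.5-fold 32 changed, 14 up and 18 down (background 17.9% in either direction). A distance above 20000 nt gave 39, 14 up and 25 down, among the 43, 31 and 7 tested loci of the distance classes beyond it. Requiring 5 FPKM gave 15 isoforms, 6 up and 9 down, and no filter on FPKM 88, 38 up and 50 down. Limma's diffSplice passed 1 locus (background 15.8%), XLOC_004286, where as for the ratio test nothing is read from the call. Without XLOC_000179 the difference in share was -0.06411 percentage points. Taking only loci with a spliced reference transcript, chosen after the data were seen, gave 56 changed loci. This choice and the distance limit use the main fit, with a background of 51.8% (25.6% up, 26.2% down). No background share is given for the filter of 1 CPM or for the alternative filters on FPKM.

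Among the loci named by rule, for which single-locus alternatives were run, signs turned at 3, none of them called. XLOC_019808 ranged over -0.04818 to 0.1259 with 1 library left out, below 0 without untreated replicate 1. XLOC_025755 ranged over -0.1918 to 0.1201, above 0 without IL-4 replicate 1 or 4 or untreated replicate 2 or 3 (0.011, 0.06265, 0.02078 and 0.1201 there). XLOC_030618 was 0.01079 with DESeq2, 0.007747 with RLE factors, 0.001846 without a filter, and ranged over -0.2732 to 0.3095 with 1 library left out, with 0.1574, 0.2111, 0.08736 and 0.3095 without IL-4 replicate 1, IL-4 replicate 4, untreated replicate 2 and untreated replicate 3. Depth limits what can be said of the 374 loci with counts that were not tested.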

Other observations

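Below the filter on counts, further loci passed the test once the filter was dropped. These were 32 of 374 loci, 18 up and 14 down, and 10 of them had 0 counts in a group (edgeR without a filter, adjusted p under 0.05). Over loci of every kind 36.9% changed in that fit, counting those above the filter. No share is given for loci of every kind below the filter, so the 32 are not read as an excess. XLOC_018174 on chromosome 3 (148947382 to 149108265), with 4 exons and 294262 nt from the nearest coding locus, had 0 counts in the IL-4 libraries and 10, 9, 9 and 17 counts in the untreated ones, at least 15.9-fold lower (edgeR, adjusted p = 9.973e-05). XLOC_004978 on chromosome 11 (116896396 to 116901508) had 6, 12, 7 and 4 counts in the IL-4 libraries and 0 in the untreated ones, at least 9.10-fold higher (edgeR, adjusted p = 0.0004965). XLOC_006788 on chromosome 13 (111418053 to 111432938) had 25, 24, 23 and 4 counts in IL-4 libraries against 3, 6, 4 and 1 counts in untreated ones, with replicate 4 the lowest in both groups (edgeR, adjusted p = 0.002177). The locus with the most exons, XLOC_023106 on the minus strand of chromosome 6 (67892068 to 70408032), has 99 exons in its longest transcript model. It had 0, 3, 0 and 0 counts in IL-4 libraries against 2, 10, 4 and 7 counts in untreated ones (edgeR, adjusted p = 0.02195). It was taken as non-coding for want of a coding-sequence identifier, and what is annotated there was not checked.

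At XLOC_008164 on chromosome 14 (115440207 to 115452348), FPKM and counts differed in a single library. Its summed FPKM was 402.6 in IL-4 replicate 1, and 2.15, 3.49 and 1.88 in the other IL-4 libraries, against 1.25, 2.84, 3.11 and 2.61 in untreated ones. In counts it had 17.96, 18.1, 26.3 and 14.6 CPM in IL-4 libraries against 13.0, 24.7, 25.7 and 20.7 CPM in untreated ones, and did not pass the test (edgeR, adjusted p = 0.9462). The locus holds 4 short references of 82 to 107 nt, and the cause was not tested.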
